A study of Mus musculus with 209 samples.

Results

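The response of splenic B cells to interleukin 6 (IL6) at 2 h was measured in 14 of the 209 RNA libraries of a study of cytokine injection in mice. They were all the IL6 and PBS libraries of 2 splenic B cell types in a screen of 14 cell types, and the rule used the labels alone. Marginal zone B cells, labelled MZB, gave 3 IL6 libraries and 4 PBS libraries. Follicular B cells, labelled B.fo, gave 2 IL6 libraries and 5 PBS libraries. Every mouse was an unmodified C57BL/6J or C57BL/6 animal of 5 to 8 weeks of age, given 5 µg of IL6 in 120 µL of phosphate-buffered saline (PBS) into a vein, or 120 µL of PBS alone. The fits below also used 3 IL1b and 3 TNFa libraries of each B cell type, outside the 14. Their mice, of the same ages, were given 5 µg of that cytokine in 120 µL, also for 2 h. Each library was made from 1000 cells sorted a second time into lysis buffer. The injection reached the whole animal, so the libraries record B cells in a treated mouse and not B cells given IL6 alone. The labels do not say whether libraries came from separate mice, and p-values therefore measure the spread between these samples, which may be technical. The sample titles name the spleen while the tissue label names the peritoneal cavity, and the titles were followed.

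IL6 is a cytokine of acute inflammation. It binds the IL6 receptor alpha chain, encoded by Il6ra, and this pair engages gp130, encoded by Il6st, the chain that carries the signal. Janus kinases bound to gp130 then phosphorylate STAT3, which enters the nucleus and induces genes that include its own and Socs3, whose product blocks gp130 signalling. Cells without the alpha chain can respond to IL6 bound to a soluble form of it in blood. IL6 was first known as a factor that drives B cells to secrete antibody, and its receptor is abundant on plasma cells. Marginal zone B cells sit beside the blood sinus of the spleen and respond early to blood-borne antigen, while follicular B cells recirculate and take part in T cell dependent responses.

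The sorted cells carried the markers of their labels as summed lists, though not for every member. S1pr3, a sphingosine phosphate receptor that marks marginal zone B cells, averaged 659 counts per 1000000 counts of a library (CPM) in PBS libraries of MZB and 12.1 CPM in those of B.fo. Fcer2a, the IgE receptor CD23 of follicular B cells, averaged 67.4 CPM in PBS libraries of MZB and 1869 CPM in those of B.fo. In PBS libraries, 10 marginal zone markers summed to 5951 to 7151 CPM in MZB and 1025 to 1244 CPM in B.fo. The 10 follicular markers summed to 5162 to 5967 CPM in MZB and 10217 to 11177 CPM in B.fo. Of the follicular markers, Cr2 (also a marginal zone marker) and Cxcr5 were higher in MZB. They averaged 2849 and 987 CPM there, against 827 and 736 CPM in B.fo. The summed level of 10 B cell markers ran from 14877 to 16041 CPM in MZB with IL6 and from 15397 to 15967 CPM with PBS. In B.fo it ran from 13600 to 14225 CPM with IL6 and from 12894 to 14118 CPM with PBS. The 10 T cell markers together gave 50.4 to 63.2 CPM in MZB with IL6, and 65.7 to 75.2 CPM in MZB with PBS. They gave 70.6 to 74.7 CPM in B.fo with IL6 and 54.7 to 99.1 CPM in B.fo with PBS. Of these 10, 3 to 5 had no count in an MZB library of either group, 1 to 2 in a B.fo library with IL6 and 3 to 6 in one with PBS. The 8 monocyte markers summed to 47.6 to 75.2 CPM with IL6 and 73.1 to 101 CPM with PBS in MZB. In B.fo they summed to 219.6 to 247.2 CPM with IL6 and 243.3 to 275.3 CPM with PBS. The 10 neutrophil markers summed to no more than 9.81 CPM in any of the 14 libraries. Their part in the results was not tested, and in bulk libraries a change in the share of a cell type and a change of RNA per cell cannot be told apart.

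Both receptor genes were lower in B cells than in most other types. In PBS libraries, Il6ra averaged 7.37 ± 3.58 CPM in MZB and 18.3 ± 7.71 CPM in B.fo (SD, n = 4 and n = 5), which placed these types 13th and 11th of the 14 types from the highest. CD4 T cells (T.4), used here for comparison, averaged 219 ± 26.8 CPM (SD, n = 5), and neutrophils (GN) had the highest level at 399 ± 62.1 CPM. The difference from T.4 was -4.88 in MZB and -3.53 in B.fo on the log2 scale (adjusted p = 8.62e-14 and 1.59e-12, edgeR's quasi-likelihood test). Il6st averaged 41.8 ± 13.3 CPM in MZB and 16.5 ± 11.1 CPM in B.fo, 9th and 12th of the 14 types, against 192 ± 36.2 CPM in T.4. The order of the 2 B cell types was opposite for the receptor chains, with a difference for MZB minus B.fo of -1.35 for Il6ra (adjusted p = 0.015) and 1.29 for Il6st (adjusted p = 0.0104). Neither gene passed the test of IL6 against PBS in either type: the log2 fold change of Il6ra was -0.46 (adjusted p = 0.85) in MZB and -0.63 (adjusted p = 0.66) in B.fo. That of Il6st was -0.67 (adjusted p = 0.53) in MZB and 0.64 (adjusted p = 0.67) in B.fo.

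**Figure D1:**
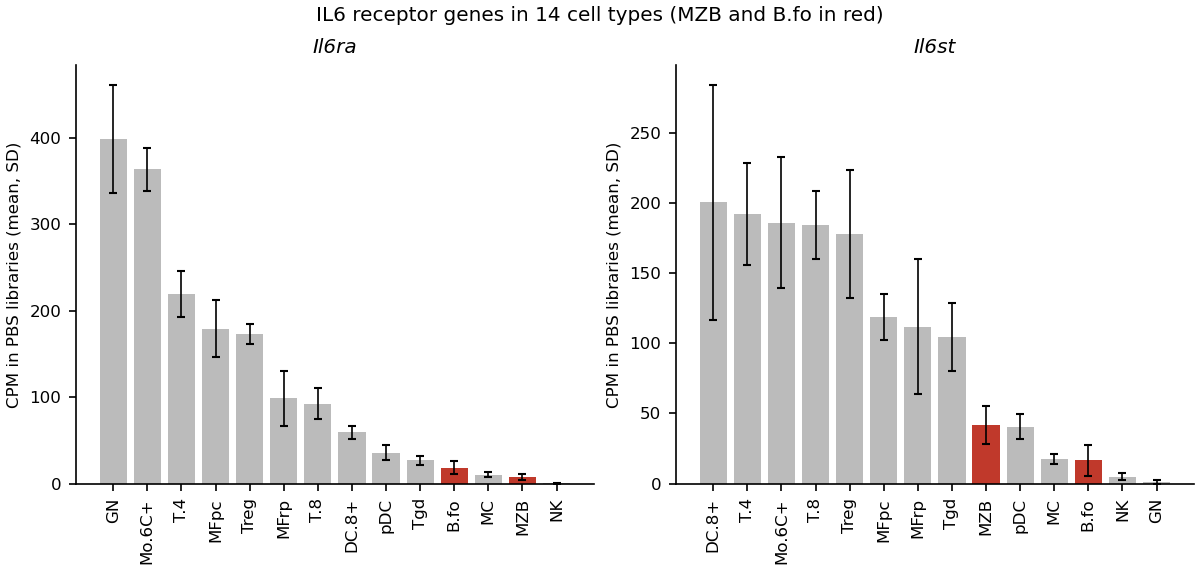
Mean level of Il6ra (left) and Il6st (right) in PBS libraries of the 14 cell types of the screen, in CPM scaled over all types, with bars at the mean and error bars of 1 SD. The 2 B cell types, in red, stand 11th and 13th for Il6ra and 9th and 12th for Il6st, below CD4 T cells (T.4) for both genes.

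Averaged over both B cell types, IL6 raised a small set of genes, among them Socs3 and Stat3 of its own pathway, the kinase Jak3, and regulators of B cell receptor signalling (Bank1, Cd22 and Pag1). Of these 6, Bank1, Cd22 and Socs3 passed in each type on its own. Bank1 and Pag1 were not on the list of B cell receptor genes used below. They were grouped with Cd22 by function after their values were seen. A fit of both types together tested the average of the 2 effects, and 163 of 14618 genes (1.12%) passed an adjusted p of 0.05, 78 raised (0.534%) and 85 lowered (0.581%). Without MZB IL6 replicate 2, 44 genes passed, without B.fo IL6 replicate 1, 40, and without B.fo IL6 replicate 2, 21. Without MZB PBS replicates 2 and 3, left out 1 at a time, 105 and 107 passed. Of the 163, 13 also passed without any 1 of the 14 libraries, with DESeq2, with thinned counts, with IL6 and PBS libraries alone and with an offset for gene length. The 12 raised were AW549877, Bank1, Ccnd3, Cd22, Hdac4, Jak3, Mif4gd, Pag1, Slc17a9, Socs3, Stat3 and Tsc22d3, and the 1 lowered was Tcp11l2. In 12 of the 13 genes the IL6 and PBS libraries did not overlap in either type, and the direction was the same in both. The exception was AW549877, whose libraries overlapped in MZB. The 13 were chosen from these same libraries, so the separation describes them and adds no support. The share of all genes separated in both types is not given here, and that within each type follows below.

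Each type on its own gave fewer calls. In MZB, 27 of 12397 genes tested (0.218%) passed, with 23 raised (0.186%) and 4 lowered (0.0323%). In B.fo, 54 of 13697 genes (0.394%) passed, with 25 raised (0.183%) and 29 lowered (0.212%). At an unadjusted p under 0.05 there were 1170 genes in MZB and 1457 in B.fo. Every called gene had its IL6 libraries wholly above or below the PBS libraries of its type. Over all genes tested, 5.05% lay wholly above and 4.55% wholly below in MZB, and 8% and 6.71% in B.fo. The calls shared by both types were Bank1, Cd22 and Socs3, all raised, which is 11.1% of the MZB calls and 5.56% of the B.fo calls, and no gene was called in opposite directions.

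The counts within a type rest on few libraries. Leaving out 1 MZB library gave 4 to 17 calls, fewest without IL6 replicate 2 and most without PBS replicate 4, with 6, 7, 8, 11 and 12 calls without PBS replicate 2, PBS replicate 3, IL6 replicate 1, IL6 replicate 3 and PBS replicate 1. In B.fo, 5 genes passed without IL6 replicate 1 and 1 without IL6 replicate 2, where the lone IL6 library was assumed to vary like the other groups, and 28 and 33 passed without PBS replicates 1 and 2. Of the 54 B.fo calls, 4 held without IL6 replicate 1 and 0 without IL6 replicate 2. Fitted with the B.fo IL6 and PBS libraries alone, without the IL1b and TNFa libraries that share the estimate of the spread, no B.fo gene passed edgeR's test, although 1120 had an unadjusted p under 0.05. DESeq2 called 146 genes in MZB and 308 in B.fo.

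The feedback inhibitor, the transcription factor and a Janus kinase of cytokine signalling rose. Socs3, the feedback inhibitor of gp130 signalling (chr11:117966079-117970047, minus strand, GRCm38), had 46.3, 47.7 and 59.4 CPM in the IL6 libraries, against 34.5, 22.6, 14.2 and 32.3 CPM in the PBS libraries of MZB. No IL6 library overlapped the PBS range, and the log2 fold change was 0.99 ± 0.20 (SE; adjusted p = 0.0429). In B.fo, Socs3 had 30.99 and 23.1 CPM in the IL6 libraries, against 11.2, 0.456, 3.69, 10.3 and 10.5 CPM in the PBS libraries. All PBS libraries were again below both IL6 libraries, with a log2 fold change of 2.00 ± 0.40 (SE; adjusted p = 0.0382). The average effect was 1.49 ± 0.24 (SE; adjusted p = 0.00128), and the difference between the types, -1.01 ± 0.49 (SE; adjusted p = 0.65) for MZB minus B.fo, did not pass. Socs3 kept its call without 1 library in 2 of 7 fits in MZB (those without PBS replicates 1 and 4) and in 4 of 7 in B.fo (those without PBS replicates 1, 2, 4 and 5), with DESeq2 giving an adjusted p of 0.13 in B.fo.

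Stat3, the transcription factor that IL6 activates (chr11:100885098-100939540, minus strand), had 402, 441 and 367 CPM in the IL6 libraries, against 231, 246, 248 and 240.2 CPM in the PBS libraries of MZB. The MZB groups did not overlap, and the log2 fold change was 0.74 ± 0.11 (SE; adjusted p = 0.00553), kept in 6 of 7 fits without 1 library and lost without IL6 replicate 2. In B.fo, Stat3 had 558 and 638 CPM in the IL6 libraries, against 326, 330.4, 369, 345 and 465 CPM in the PBS libraries. Both IL6 libraries were above all PBS libraries, but the change of 0.70 ± 0.19 (SE; adjusted p = 0.11) did not pass the test. Jak3, the kinase that pairs with the common gamma chain of the IL2, IL4, IL7 and IL21 receptors (chr8:71676296-71690575, plus strand), had 271, 383 and 384 CPM in the IL6 libraries, against 111, 146, 128 and 142 CPM in the PBS libraries of MZB. This was the MZB call with the smallest adjusted p, 1.39 ± 0.16 (SE; adjusted p = 0.000239) on the log2 scale, and it passed in all 7 fits without 1 library. In B.fo, Jak3 had 249.8 and 237 CPM in the IL6 libraries, against 129, 127, 92.5, 151 and 193 CPM in the PBS libraries, again without overlap, and its change of 0.82 ± 0.18 (SE; adjusted p = 0.0525) fell just short of the threshold. Averaged over both types, Stat3 changed by 0.71 ± 0.12 (SE; adjusted p = 0.00145) and Jak3 by 1.10 ± 0.13 (SE; adjusted p = 9.73e-06). Jak3 overlaps Insl3 on the same strand, and reads shared by these genes could not be separated here.

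Other members of the signalling list did not pass in either type. Of 31 genes of the IL6 receptor and JAK-STAT pathway, 27 were tested in MZB, where 3 rose (Jak3, Socs3 and Stat3), 0 fell and the median log2 fold change was 0.08. In B.fo, 28 were tested, 1 rose (Socs3), 0 fell and the median was 0.15, against a median of about 0 over all genes (-0.00493 in MZB and -0.00311 in B.fo). Over all genes, 0.186% rose in MZB and 0.183% in B.fo. Log2 fold changes of the list ran from -1.26 to 1.39 in MZB and from -2.35 to 2.00 in B.fo. The IL6 libraries were wholly above the PBS libraries for 3 of the 27 in MZB (5.05% of all genes) and for 8 of the 28 in B.fo (8% of all genes). The 8 were Il21r, Il4ra, Jak1, Jak3, Ptpn1, Ptpn11, Socs3 and Stat3. They were wholly below for 2 in MZB (Il2rg and Pias1, 4.55% of all genes) and for 1 in B.fo (Socs1, 6.71% of all genes). The kinases of gp130 did not pass in either type, with Jak1 at 0.17 (adjusted p = 0.76) in MZB and 0.32 (adjusted p = 0.17) in B.fo and Jak2 at -0.32 (adjusted p = 0.80) and 0.14 (adjusted p = 0.87). Socs1, a feedback inhibitor of interferon and other JAK signalling, had 1.93 and 1.52 CPM in the IL6 libraries, against 7.04, 12.8, 2.21, 9.07 and 13.8 CPM in the PBS libraries of B.fo. Both IL6 libraries were below the PBS libraries without passing (log2 fold change -2.35, adjusted p = 0.11). Of 26 genes listed as STAT3 targets in other cells, Socs3 and Stat3 rose in MZB (21 tested) and Socs3 rose in B.fo (22 tested). The IL6 libraries were wholly above the PBS libraries for 2 of the 21 in MZB and 7 of the 22 in B.fo. They were wholly below for 2 of the 21 in MZB (Gadd45g and Mcl1) and 0 of the 22 in B.fo. Bcl3, a STAT3 and NF-kB target, was at 0.30 (adjusted p = 0.77) in MZB and 0.66 (adjusted p = 0.36) in B.fo. Fos passed only in the average, and from levels near 0: it had 3.88, 0 and 2.57 CPM in the IL6 libraries, against 0, 0, 0 and 0 CPM in the PBS libraries of MZB. In B.fo it had 5.79 and 13.96 CPM in the IL6 libraries, against 1.46, 0, 0.246, 1.97 and 0.727 CPM in the PBS libraries.

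**Figure D2:**
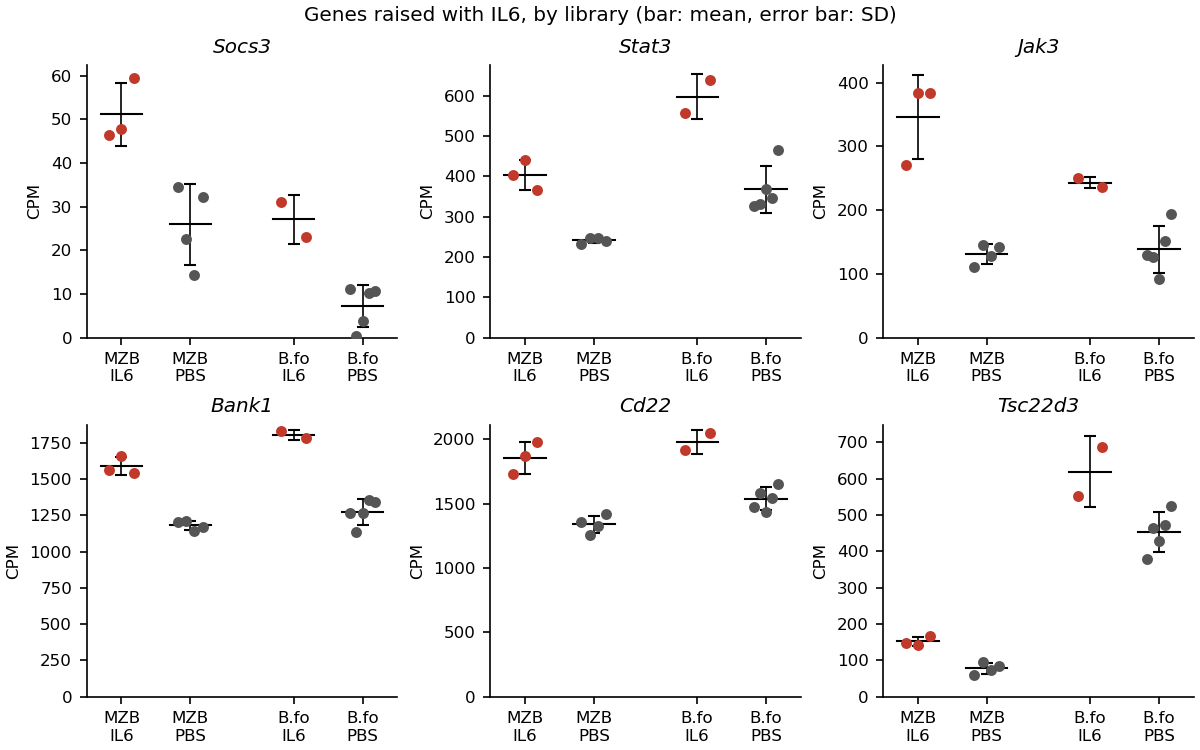
Level of 6 genes in each IL6 library (red) and PBS library (grey) of MZB and B.fo, in CPM on a linear axis from 0, with a bar at the mean and an error bar of 1 SD. In every panel the IL6 libraries of a type lie above all of its PBS libraries; Bank1, Cd22 and Socs3 passed the test in both types, Stat3, Jak3 and Tsc22d3 in MZB and in the average.

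STAT dimers bind DNA at palindromes of the form TTCNNNGAA, so promoters of the called genes, from 250 bases before to 50 after the start in RefSeq (GRCm38.p6), were searched for these letters. The motif reads the same on both strands, and 8.3% of all 32851 promoters held it, as did 6.83% and 6.97% of the promoters of all genes tested in MZB and in B.fo. It was found in 4 of the 25 promoters of the 21 matched genes raised in MZB (16%), in 2 of the 25 promoters of the 21 matched genes raised in B.fo (8%). It was found in none of the 3 promoters of genes lowered in MZB and in 2 of the 29 promoters of the 23 matched genes lowered in B.fo (6.9%). The gene raised in both types with the motif was Socs3, whose match begins 154 bases before the RefSeq start. That start and the 250 bases before it lie inside the Socs3 span given above. The span came from GENCODE, and its own start is further upstream. The 250 bases before the RefSeq start are shown because the match, in capitals, lies there (chr11:117969367-117969616, minus strand, 5′ to 3′).
Socs3: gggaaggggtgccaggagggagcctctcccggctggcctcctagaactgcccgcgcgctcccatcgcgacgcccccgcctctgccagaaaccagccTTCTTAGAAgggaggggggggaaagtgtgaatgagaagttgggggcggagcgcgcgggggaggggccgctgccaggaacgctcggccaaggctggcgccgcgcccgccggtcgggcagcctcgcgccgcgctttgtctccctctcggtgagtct
The other raised genes with a match are shown by 25 bases around it, for comparison with that of Socs3: Polr1b (chr2:129100973-129100997, plus strand), Pprc1 (chr19:46056398-46056422, plus strand), Tsc22d3 (chrX:140548762-140548786, minus strand, in 1 of its 3 promoters) and Sorl1 (chr9:42077260-42077284, minus strand).
Polr1b: aactacatTTCCCAGAAggccacgg
Pprc1: gactacaaTTCCCAGAAatcctcga
Tsc22d3: gtttttacTTCTGTGAAtgagggcc
Sorl1: ttatgtagTTCTCAGAAacccgaaa
The promoters of Stat3, Jak3, Bank1 and Cd22 did not hold these letters in this window. A match is a description of the sequence and was not tested for binding.

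Bank1 and Cd22, which encode regulators of B cell receptor signalling, were the other genes raised in both types. Bank1, a scaffold of B cells that links the receptor to the kinase Lyn and to calcium release (chr3:136053363-136326066, minus strand), had 1562, 1658 and 1541 CPM in the IL6 libraries, against 1202, 1211, 1139.6 and 1167 CPM in the PBS libraries of MZB. The lowest IL6 library exceeded the highest PBS library, at a log2 fold change of 0.43 ± 0.08 (SE; adjusted p = 0.0259). In B.fo, Bank1 had 1829 and 1781 CPM in the IL6 libraries, against 1262, 1134, 1267, 1355 and 1339.5 CPM in the PBS libraries, again without overlap and a change of 0.51 ± 0.08 (SE; adjusted p = 0.00812). Cd22, a sialic acid binding coreceptor that restrains B cell receptor signalling (chr7:30865402-30880342, minus strand), had 1728, 1869.6 and 1977 CPM in the IL6 libraries, against 1360.3, 1254, 1324 and 1416 CPM in the PBS libraries of MZB. Its groups did not overlap, and the change was 0.47 ± 0.08 (SE; adjusted p = 0.0155). In B.fo, Cd22 had 1916 and 2047 CPM in the IL6 libraries, against 1472, 1582, 1435, 1548 and 1655 CPM in the PBS libraries, a change of 0.37 ± 0.07 (SE; adjusted p = 0.041). Both changes were small, but the average over the types was 0.46 ± 0.05 (SE; adjusted p = 9.73e-06) for Bank1 and 0.41 ± 0.05 (SE; adjusted p = 4.27e-05) for Cd22. In MZB, Bank1 lost its call without any 1 of the 7 libraries (adjusted p = 0.0648 to 0.15) and Cd22 kept it in 3 of 7 fits, without PBS replicates 1 and 4 and IL6 replicate 1. In B.fo, Bank1 lost its call without either IL6 library, and Cd22 kept it only without PBS replicate 5. In the average, both kept their calls in all 14 fits without 1 library.

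The B cell receptor list, which holds Cd22 but not Bank1, had members that moved in both directions, and most did not pass. Of 24 members tested in each type, Cd22 rose in MZB, and Cd22 rose and Cd79b fell in B.fo. In the average effect, 2 rose (Cd22 and Ptpn22) and 3 fell (Cd79b, Cd81 and Prkcb), with a list median of 0.00 on the log2 scale. Over all genes, 0.186% rose in MZB, and 0.183% rose and 0.212% fell in B.fo. In the average, 0.534% of all genes rose and 0.581% fell. Ptpn22, a phosphatase that restrains antigen receptor signalling, had 572, 676 and 500.01 CPM in the IL6 libraries, against 378, 488, 432 and 453 CPM in the PBS libraries of MZB. In B.fo it had 206 and 174 CPM in the IL6 libraries, against 108, 137, 153, 104 and 105 CPM in the PBS libraries. Its groups did not overlap in either type, and it passed only in the average, at 0.52 ± 0.09 (SE; adjusted p = 0.00352). Cd79b, the signalling chain of the B cell receptor, had 2495 and 2246 CPM in the IL6 libraries, against 3034, 3107, 2965, 2819 and 2910.5 CPM in the PBS libraries of B.fo. All IL6 libraries were below all PBS libraries, with a change of -0.32 ± 0.07 (SE; adjusted p = 0.041), and in MZB, where it was at -0.15 (adjusted p = 0.59), the groups did not overlap either. Cd81, a tetraspanin of B cells, had an average change of -0.34 ± 0.06 (SE; adjusted p = 0.00431) and Prkcb, the protein kinase C isoform of B cell receptor signalling, of -0.34 ± 0.08 (SE; adjusted p = 0.0335). Cr2, the complement receptor CD21, had 1123 and 1282 CPM in the IL6 libraries, against 818, 709, 759, 1004 and 845 CPM in the PBS libraries of B.fo and did not pass (log2 fold change 0.54, adjusted p = 0.062). In the fits without 1 library, the average calls of Ptpn22 and Cd81 were lost without B.fo IL6 replicate 1, that of Cd79b without MZB IL6 replicate 2 or B.fo IL6 replicate 2, and that of Prkcb in 6 of 14.

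In MZB, 3 genes that act in building ribosomes in the nucleolus rose. Of 24 listed genes of ribosome biogenesis, all tested, 3 rose in MZB (Nop2, Polr1b and Ddx21), against 0.186% of all genes, and 0 fell. Of the 24, 22 had a positive log2 fold change, against 49.4% of all genes. For 10 the IL6 libraries lay wholly above the PBS libraries, against 5.05% of all genes. The list median was 0.47 against -0.00493 over all genes. In B.fo, 0 passed in either direction, 10 were positive and the median was -0.03. The difference between the types passed for none of them. Nop2, a methyltransferase of ribosomal RNA, had 187, 173 and 177 CPM in the IL6 libraries, against 116, 97.4, 93.4 and 97.1 CPM in the PBS libraries of MZB. This change of 0.82 ± 0.12 (SE; adjusted p = 0.00341) passed in all 7 fits without 1 library. In B.fo, Nop2 had 111 and 103 CPM in the IL6 libraries, against 104, 119, 116, 103 and 111 CPM in the PBS libraries, the groups overlapped, and the difference of the effects was 0.87 ± 0.19 (SE; adjusted p = 0.27). Polr1b, a core subunit of RNA polymerase I, had 184, 159 and 162 CPM in the IL6 libraries, against 87.4, 101, 94.7 and 103 CPM in the PBS libraries of MZB, a change of 0.80 ± 0.14 (SE; adjusted p = 0.0155). Ddx21, a nucleolar RNA helicase, had 238, 242 and 257 CPM in the IL6 libraries, against 123, 150.1, 153 and 175 CPM in the PBS libraries of MZB, a change of 0.71 ± 0.13 (SE; adjusted p = 0.023). Each group pair was separate, but Polr1b kept its call in 2 of 7 fits (without PBS replicate 4 and IL6 replicate 3) and Ddx21 in 1 (without PBS replicate 4).

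Outside the list, other MZB calls were Pwp2 and Wdr43, parts of the complex that processes the small ribosomal subunit, Usp36, a nucleolar deubiquitinase, and Mettl1, a methyltransferase of transfer RNA. Their log2 fold changes were 0.89 (adjusted p = 0.0251) for Pwp2, 0.57 (adjusted p = 0.0323) for Wdr43, 0.77 (adjusted p = 0.0438) for Usp36 and 1.10 (adjusted p = 0.0323) for Mettl1. These 4 were brought together after their values were seen and are no extension of the list. Pprc1, a coactivator of nuclear genes for mitochondria, was raised by 0.86 (adjusted p = 0.0465). Myc, a transcription factor that drives ribosome genes, had 377, 435 and 642 CPM in the IL6 libraries, against 388, 340.01, 404 and 241 CPM in the PBS libraries of MZB, and the groups overlapped (log2 fold change 0.50, adjusted p = 0.28). In the same MZB fit, Myc averaged 1269.8 ± 199 CPM with IL1b and 1159 ± 36.9 CPM with TNFa (SD, n = 3 each). Wdr43 and Pprc1 lost their calls without any 1 library, Pwp2 and Usp36 kept them in 1 of 7 fits, without PBS replicate 4 and without PBS replicate 1, and Mettl1 in 1 of 7, without PBS replicate 1.

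The largest MZB change among all calls was that of Slc17a9, the transporter that loads ATP into vesicles (chr2:180725263-180742280, plus strand). It had 79.8, 78.7 and 76.4 CPM in the IL6 libraries, against 23.7, 35.6, 32.6 and 26.7 CPM in the PBS libraries, with the groups far apart, and a log2 fold change of 1.40 ± 0.20 (SE; adjusted p = 0.00341). In B.fo, Slc17a9 had 80.3 and 67.2 CPM in the IL6 libraries, against 65.99, 55.2, 48.4, 43.8 and 45.1 CPM in the PBS libraries, a difference that did not pass (log2 fold change 0.51, adjusted p = 0.45), and the average effect was 0.95 ± 0.16 (SE; adjusted p = 0.00205). Tsc22d3, which encodes the glucocorticoid-induced leucine zipper (chrX:140539528-140600659, minus strand), had 147, 143 and 167 CPM in the IL6 libraries, against 59.6, 96.4, 73.2 and 84.1 CPM in the PBS libraries of MZB, a change of 0.96 ± 0.14 (SE; adjusted p = 0.00341). In B.fo it had 552 and 688 CPM in the IL6 libraries, against 378, 465, 428, 473 and 525 CPM in the PBS libraries, which did not overlap and did not pass (log2 fold change 0.45, adjusted p = 0.0668). Tsc22d3 was the 1 of 14 tested glucocorticoid-responsive genes that rose in MZB, against 0.186% of all genes. Fkbp5, another of them, was at 0.78 (adjusted p = 0.15) in MZB. Slc17a9 and Tsc22d3 both kept their MZB calls in all 7 fits without 1 library.

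Single genes of other functions also rose in MZB. Shmt1, which feeds serine into one-carbon metabolism, had 66.5, 49.2 and 50.4 CPM in the IL6 libraries, against 20.6, 28.5, 33.9 and 19.8 CPM in the PBS libraries, a change of 1.10 ± 0.20 (SE; adjusted p = 0.0259). Ifi30, a lysosomal thiol reductase of antigen processing, had 262, 216 and 224 CPM in the IL6 libraries, against 137, 145, 155 and 137 CPM in the PBS libraries. It was the 1 of 18 listed MHC class II presentation genes that passed (log2 fold change 0.70 ± 0.14 SE, adjusted p = 0.0413), against 0.218% of all genes. Cd53, a tetraspanin of leukocytes, had a log2 fold change of 0.50 (adjusted p = 0.034), St6galnac4, a sialyltransferase, at 0.69 (adjusted p = 0.0259). Mif4gd, a factor for translation of histone messages, was at 0.58 (adjusted p = 0.0259), Aen, a nuclease induced by p53, at 0.89 (adjusted p = 0.0251), and Thada at 0.80 (adjusted p = 0.0259). Gm19327, with no role given here, was at 1.11 (adjusted p = 0.0429). Shmt1, Ifi30, St6galnac4, Mif4gd, Aen, Thada and Gm19327 each kept the call in at most 1 of 7 fits without 1 library.

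The 4 genes lowered in MZB were Ccr7, Il9r, Chka and Tcp11l2. Ccr7, the receptor that draws lymphocytes to the T cell zone (chr11:99144196-99155077, minus strand), had 146, 112 and 98.9 CPM in the IL6 libraries, against 209.6, 233, 185 and 166 CPM in the PBS libraries of MZB. The highest IL6 library stayed below the lowest PBS library, at a change of -0.74 ± 0.15 (SE; adjusted p = 0.0409). In B.fo, Ccr7 had 443 and 386 CPM in the IL6 libraries, against 788, 779.5, 666, 505 and 447 CPM in the PBS libraries; both IL6 libraries were again lowest, but the change of -0.62 ± 0.17 (SE; adjusted p = 0.13) did not pass. The average effect was -0.69 ± 0.12 (SE; adjusted p = 0.00299), lost without B.fo IL6 replicate 2. Ccr7 was the 1 of 23 tested trafficking and adhesion genes to pass in MZB or in the average. Over all genes, 0.218% passed in MZB and 1.12% in the average. Il9r, the IL9 receptor, had 130.3, 146 and 148 CPM in the IL6 libraries, against 278, 179, 253 and 339 CPM in the PBS libraries of MZB. This was a change of -0.89 ± 0.17 (SE; adjusted p = 0.0259), and in B.fo it was at 0.20 (adjusted p = 0.87). Chka, a choline kinase of membrane lipid synthesis, was at -0.84 (adjusted p = 0.0486) and Tcp11l2 at -0.65 (adjusted p = 0.0429) in MZB. Ccr7 kept its call in 2 of 7 fits without 1 library (PBS replicate 4 or IL6 replicate 1), Il9r and Chka in 1 of 7 (PBS replicate 2 and PBS replicate 1), and Tcp11l2 in 0 of 7, although its average over both types, -0.57 (adjusted p = 0.000704), held in all 14 such fits. Fitted with the MZB IL6 and PBS libraries alone, Ccr7 and Chka did not pass.

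Genes lowered in both types together, and called only in the average, included surface receptors. Fcer2a had 35.8, 29.8 and 42.1 CPM in the IL6 libraries, against 75.99, 45.4, 59.6 and 88.3 CPM in the PBS libraries of MZB. In B.fo it had 1513 and 1401 CPM in the IL6 libraries, against 1845, 1874, 1721, 1919.8 and 1983 CPM in the PBS libraries. The groups did not overlap in either type, and the average was -0.64 ± 0.15 (SE; adjusted p = 0.0293), lost in 6 of the 14 fits without 1 library (MZB PBS replicates 1 and 4, MZB IL6 replicates 1 and 2, and both B.fo IL6 replicates). Cd40, the receptor for T cell help, averaged 175 ± 11.3 CPM with IL6 and 233 ± 16.8 CPM with PBS in MZB (SD). It averaged 172 ± 14.5 CPM with IL6 and 217 ± 25.03 CPM with PBS in B.fo (SD), and the effect over both types was an average log2 fold change of -0.38 ± 0.08 (SE; adjusted p = 0.0133). Btg2, an immediate-early gene that slows division, had an average change of -0.63 (adjusted p = 0.00696) and Nfkbie, an inhibitor of NF-kB, of -0.42 (adjusted p = 0.0449). Cd40 was the 1 of 22 tested survival and costimulation genes and Nfkbie the 1 of 25 tested NF-kB genes to pass in the average. Over all genes, 1.12% passed in the average. Cd40 lost the call without MZB IL6 replicate 2 or either B.fo IL6 library, Btg2 without B.fo IL6 replicate 2, and Nfkbie in 11 of the 14 fits without 1 library.

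In B.fo, the genes raised included regulators of the cell surface and of division. Pag1, an adaptor in the membrane that recruits the kinase Csk to restrain Src family kinases (chr3:9687479-9833679, minus strand), had 205 and 234 CPM in the IL6 libraries, against 137, 94.7, 112, 112 and 120.3 CPM in the PBS libraries of B.fo, a change of 0.93 ± 0.13 (SE; adjusted p = 0.00812). In MZB, Pag1 had 91.7, 132 and 123 CPM in the IL6 libraries, against 67.4, 65.7, 81.4 and 47.7 CPM in the PBS libraries, again without overlap (log2 fold change 0.81, adjusted p = 0.0595), and the average was 0.86 ± 0.11 (SE; adjusted p = 4.27e-05). Ccnd3, which encodes a D cyclin, had 593 and 605 CPM in the IL6 libraries, against 380.2, 377, 409.6, 399.6 and 319.96 CPM in the PBS libraries of B.fo. This was a change of 0.67 ± 0.10 (SE, adjusted p = 0.00812). In MZB, Ccnd3 had 293, 265 and 276 CPM in the IL6 libraries, against 162, 188, 184 and 177 CPM in the PBS libraries (log2 fold change 0.64, adjusted p = 0.0551), and the average was 0.65 ± 0.09 (SE; adjusted p = 9.42e-05). Hdac4, a class IIa histone deacetylase, had 69.3 and 66.5 CPM in the IL6 libraries, against 32.3, 26.7, 28.3, 37.1 and 31.6 CPM in the PBS libraries of B.fo, a change of 1.13 ± 0.21 (SE; adjusted p = 0.0282), and its MZB change of 0.73 (adjusted p = 0.089) was without overlap too. These genes therefore had separate groups in both types, while the separate fits called them in B.fo and not in MZB.

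Ptprc, the CD45 phosphatase of leukocytes, had 2332 and 2555 CPM in the IL6 libraries, against 1792, 1809, 1792, 1934 and 1905 CPM in the PBS libraries of B.fo, a change of 0.40 ± 0.06 (SE; adjusted p = 0.0125). Btla, an inhibitory receptor of lymphocytes, had 611 and 815 CPM in the IL6 libraries, against 473, 455, 468, 586 and 405 CPM in the PBS libraries, a change of 0.58 ± 0.12 (SE; adjusted p = 0.0382). Mdm4, an inhibitor of p53, had 371 and 379 CPM in the IL6 libraries, against 253, 237, 245, 241 and 201 CPM in the PBS libraries, a change of 0.67 ± 0.12 (SE; adjusted p = 0.0233). In all 3 genes the IL6 libraries were above every PBS library. Tha1, threonine aldolase, rose from a low level, with 20.5 and 23.4 CPM in the IL6 libraries, against 7.28, 6.62, 8.61, 8.68 and 6.91 CPM in the PBS libraries and a change of 1.52 ± 0.31 (SE; adjusted p = 0.041). Sorl1, a sorting receptor of endosomes, was raised by 0.55 on the log2 scale (adjusted p = 0.041), and Cltc, the clathrin heavy chain, by 0.64 (adjusted p = 0.0317). Lnpep, an aminopeptidase of endosomes, was raised by 0.58 (adjusted p = 0.0491), and Cnot1, the scaffold of the CCR4-NOT deadenylase, by 0.61 (adjusted p = 0.0424). Sc5d, an enzyme of cholesterol synthesis, was raised by 0.93 (adjusted p = 0.041). Birc6 and Herc1, very large ubiquitin ligases, were raised by 0.60 (adjusted p = 0.0379) and 0.70 (adjusted p = 0.046). The other raised genes were AW549877, Gabpb2, Gm15987, Gm1966, Gm45223, Lcor, Wdfy4 and Zfp87, with log2 fold changes from 0.46 to 1.25. An offset for gene length is described below. With it, Mdm4, Btla, Tha1, Cltc, Lnpep, Cnot1, Sc5d, Birc6 and Herc1 did not pass (adjusted p = 0.0603 to 0.31).

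The genes lowered in B.fo were led in number by genes of the ribosome's own proteins. Of 77 cytosolic ribosomal protein genes, a list added after the data were seen, 14 fell in B.fo, against 0.212% of all genes, and 0 rose. All 77 had a negative log2 fold change, where 49.7% of all genes were positive, and the median was -0.48. For 63 both IL6 libraries were below all PBS libraries, against 6.71% of all genes. In MZB, 0 passed in either direction, 58 of the 77 were positive (49.4% of all genes) and the median was 0.11. The difference of the effects, MZB minus B.fo, was positive for all 77, with a median of 0.61, and passed for 0 of them. Rps2 had 151 and 200.02 CPM in the IL6 libraries, against 285, 349.6, 333, 308 and 337 CPM in the PBS libraries of B.fo, a change of -0.88 ± 0.14 (SE; adjusted p = 0.0137). In MZB, Rps2 had 429, 437 and 206 CPM in the IL6 libraries, against 317, 494, 741 and 741 CPM in the PBS libraries, where the groups overlapped. Rps26 had 449.97 and 341 CPM in the IL6 libraries, against 643, 727, 626, 681 and 835 CPM in the PBS libraries of B.fo, a change of -0.83 ± 0.14 (SE; adjusted p = 0.0169). These families have many processed pseudogenes, and how reads that match several genes were counted is not given in the sources used here, so single members are uncertain.

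Other genes of varied function fell in B.fo. Tmsb10, a thymosin that binds actin, had 264 and 188 CPM in the IL6 libraries, against 436, 494, 387, 496 and 725 CPM in the PBS libraries, a change of -1.16 ± 0.22 (SE; adjusted p = 0.0347). Ppia, cyclophilin A, had a log2 fold change of -0.70 (adjusted p = 0.0452). Fth1, the ferritin heavy chain, had one of -0.45 (adjusted p = 0.0195). Gpx1, a glutathione peroxidase, had one of -0.64 (adjusted p = 0.0364). Ltb, lymphotoxin beta, had one of -0.47 (adjusted p = 0.0382). Ly6e, a GPI-anchored surface protein, had one of -0.40 (adjusted p = 0.00812), and Igkc, the immunoglobulin kappa constant region, one of -0.38 (adjusted p = 0.0331). Fau was at -0.65 (adjusted p = 0.0491), Gmfg at -0.64 (adjusted p = 0.046), Slfn2 at -0.63 (adjusted p = 0.0354) and Limd2 at -0.43 (adjusted p = 0.0382).

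The B.fo IL6 libraries differed from the PBS libraries in depth and composition as well. They held 9291121 and 6553203 counts, against 2555640 to 4485774 counts in the B.fo PBS libraries, and ribosomal protein genes took 4.44% and 3.74% of the counts with IL6, against 4.85% to 5.81% with PBS. The 3 TNFa libraries of B.fo were like the IL6 libraries in both, with 6872067 to 8014028 counts and 4.08% to 4.20%. In MZB the IL6 libraries held 3175607 to 3581479 counts and the PBS libraries 3366129 to 4433650, with ribosomal protein shares of 6.26% to 7.55% with IL6 and 5.64% to 6.94% with PBS. Genes raised in B.fo had a median exon length of 8499 bases and genes lowered had 1664, against 4045 over all genes tested with a length. With all genes cut into 4 equal sets from short to long, the median B.fo log2 fold change of IL6 against PBS was -0.096, -0.052, 0.005 and 0.093. With counts thinned to the smallest library 50 B.fo genes passed, and with an offset for gene length, a setting chosen after seeing the data, 11 passed. Pag1, Ccnd3, Ttll12 and Rps2 were among those 11 (adjusted p = 0.0257, 0.0302, 0.016 and 0.0302 with the offset), and Socs3, Bank1 and Cd22 were not (0.0603, 0.0603 and 0.10). Set against TNFa instead of PBS, Rps26 was at -0.02 (adjusted p = 1.00), Tmsb10 at 0.03 (adjusted p = 1.00) and Ly6e at -0.03 (adjusted p = 1.00). The part of depth and length in the B.fo calls was not tested.

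**Figure D3:**
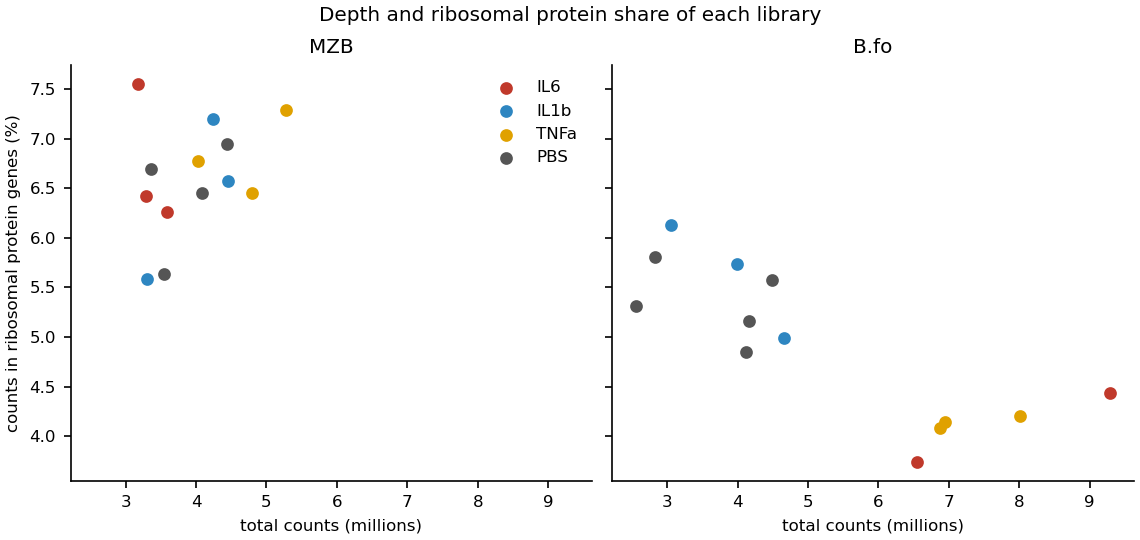
Total counts (x axis) against the percentage of counts in ribosomal protein genes (y axis) for each MZB library (left) and B.fo library (right), coloured by treatment. In B.fo the 2 IL6 and 3 TNFa libraries lie apart, with more counts and lower shares than the IL1b and PBS libraries. In MZB the shares of the treatments overlap, and the IL6 libraries hold fewer counts than the TNFa libraries.

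The summed level of the marginal zone B cell markers was also higher in the B.fo IL6 libraries. The 10 together gave 1498 to 1603 CPM with IL6 against 1025 to 1244 CPM with PBS. The sum of the 10 follicular B cell markers was higher in the same libraries too, with 11492 to 11760 CPM with IL6 against 10217 to 11177 CPM with PBS. Cr2 is on both lists. Fcer2a and Ccr7 of the follicular list lay below all PBS libraries, as given above. The mean log2 CPM of the follicular list overlapped, at 9.26 and 9.38 with IL6 against 9.19 to 9.34 with PBS. Cr2, given above, made up most of the marginal zone sum. In B.fo, Cd1d1 had 75.7 and 71.9 CPM in the IL6 libraries, against 80.6, 77.6, 54.8, 72.97 and 73.1 CPM in the PBS libraries, and S1pr3 had 8.04 and 10.8 CPM in the IL6 libraries, against 4.37, 23.7, 8.61, 16.96 and 6.54 CPM in the PBS libraries. The groups overlapped for both genes. In MZB, the marginal zone markers gave 6083 to 6697 CPM with IL6 and 5951 to 7151 CPM with PBS, and the follicular markers 5420 to 5916 CPM with IL6 and 5162 to 5967 CPM with PBS. The part of either list in the B.fo result was not tested.

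Ttll12, a protein of the tubulin tyrosine ligase family (chr15:83575090-83595157, minus strand), had 3.003 and 2.28 CPM in the IL6 libraries, against 13.3, 28.1, 20.7, 23.3 and 13.5 CPM in the PBS libraries of B.fo. Both IL6 libraries were below every PBS library, and the log2 fold change was -2.89 ± 0.44 (SE; adjusted p = 0.00812). In MZB, Ttll12 had 15.5, 18.5 and 26.01 CPM in the IL6 libraries, against 11.1, 16.9, 25.7 and 24.6 CPM in the PBS libraries, with overlapping groups. Its effect differed between the types by 2.90 ± 0.51 (SE; adjusted p = 0.0474) for MZB minus B.fo, the 1 call among 14618 genes (0.00684%), where 1091 genes had an unadjusted p under 0.05. DESeq2 called 48 genes for this difference, and Ttll12 was not among them. The call was also absent under a filter of 1 CPM, with thinned counts, with IL6 and PBS libraries alone, with the replicate number as a block and in 9 of the 14 fits without 1 library; it held without MZB PBS replicate 3, MZB IL6 replicate 1 or B.fo PBS replicates 1, 3 or 5. Ext2, a polymerase of heparan sulfate, had 29.7 and 36.7 CPM in the IL6 libraries, against 70.1, 86.03, 85.3, 79.3 and 59.3 CPM in the PBS libraries of B.fo, a change of -1.20 ± 0.23 (SE; adjusted p = 0.0317). Gstk1, a mitochondrial glutathione transferase, had 0 and 0 CPM in the IL6 libraries, against 2.18, 0.456, 9.34, 3.55 and 7.64 CPM in the PBS libraries of B.fo. Taken at a floor of 3 counts per library, its mean was at least 11.9-fold lower with IL6, which covers counting error only.

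Interferon-stimulated genes did not pass in either type, although most values were below 0. Of 30 tested type I interferon-stimulated genes, 25 were negative in MZB and 23 in B.fo, with medians of -0.24 and -0.25; in the average, 29 of 31 were negative, the median was -0.29 and 0 passed. In MZB, Ddx58, Mx2, Oas1a and Oas2 had IL6 libraries wholly below the PBS libraries, which was 4 of 30 against 4.55% of all genes. In B.fo, Ddx58 and Rtp4 did, and 2 of 30 is near the 6.71% of all genes. Lists of interferon-gamma genes, the cell cycle, B cell transcription factors, plasma cell differentiation and Toll-like receptors had 0 members that passed in either type by edgeR. Flot1, a scaffold of membrane rafts, had 32.4, 30.7 and 30.8 CPM in the IL6 libraries, against 23.1, 21.1, 20.6 and 16.3 CPM in the PBS libraries of MZB, which did not overlap and did not pass (log2 fold change 0.62, adjusted p = 0.29), and in B.fo it was at 0.37 (adjusted p = 0.69).

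**Figure D4:**
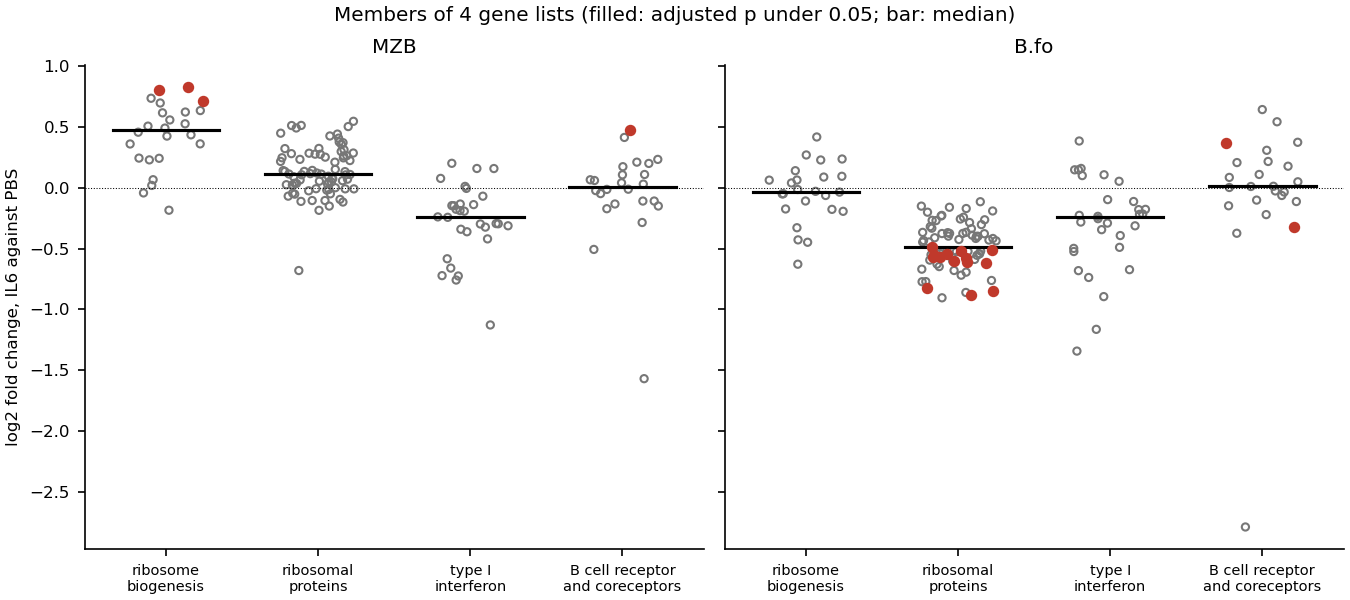
Log2 fold change of IL6 against PBS for each tested member of 4 gene lists in MZB (left) and B.fo (right), with filled red points at an adjusted p under 0.05 and a bar at the list median. Ribosome biogenesis genes lie mostly above 0 in MZB (median 0.47) and ribosomal protein genes all below 0 in B.fo (median -0.48), while type I interferon-stimulated genes lie mostly below 0 in both.

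Read in the type where they were not chosen, the calls kept their direction in part. Of the 23 genes raised in MZB, 22 were positive in B.fo and 11 had B.fo IL6 libraries wholly above the PBS libraries, with a median log2 fold change of 0.41. Of the 4 lowered in MZB, 3 were negative in B.fo and 2 wholly below. Of the 25 raised in B.fo, 21 were positive in MZB and 9 wholly above, with a median of 0.19. Of the 29 lowered in B.fo, 23 were negative in MZB and 2 wholly below, with a median of -0.11. Over all genes, 49.4% were positive in MZB and 49.7% in B.fo. The IL6 libraries were wholly above the PBS libraries for 5.05% of all genes in MZB and 8% in B.fo, and wholly below for 4.55% in MZB and 6.71% in B.fo. The 2 of 29 are near that background. These are other libraries than those that gave each call, and no test of overlap was made.

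**Figure D5:**
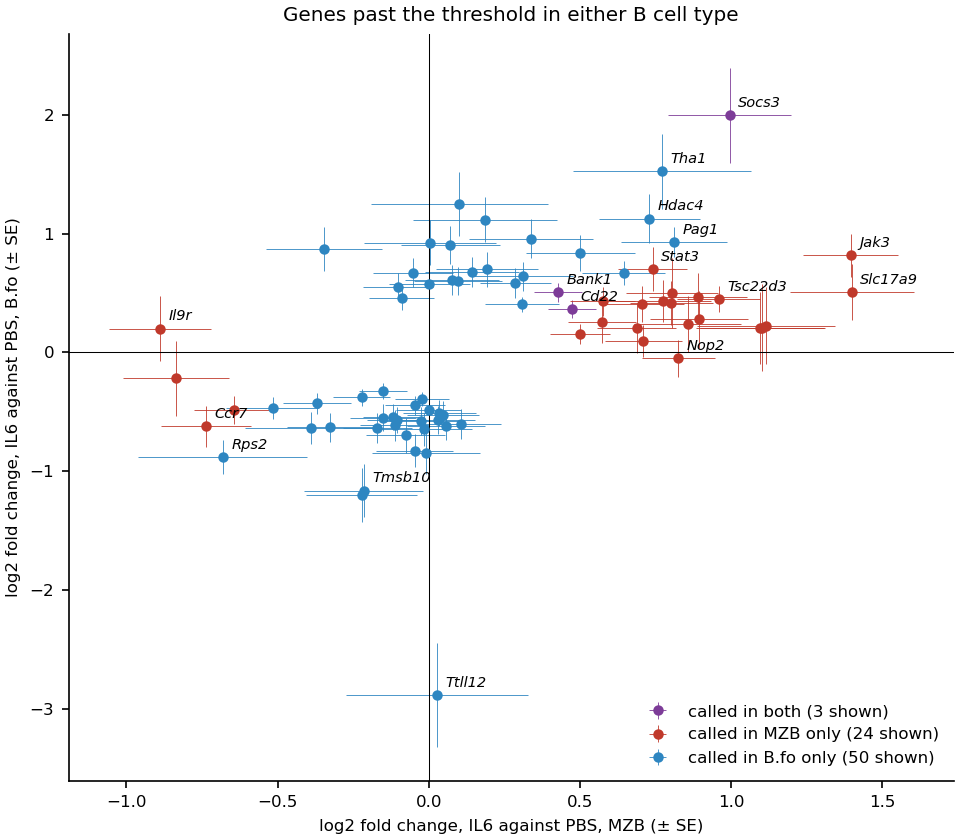
Log2 fold change of IL6 against PBS in MZB (x axis) and in B.fo (y axis) for genes called in either type and tested in both, with error bars of 1 SE. The 3 genes called in both types (Bank1, Cd22 and Socs3) lie in the upper right with most genes raised in MZB. Most genes raised in B.fo lie above 0 on the MZB axis (median 0.19), and most genes lowered in B.fo lie below 0 (median -0.11). Ttll12 lies at 0.03 in MZB and -2.89 in B.fo.

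Socs3 was far lower with IL6 than with IL1b or TNFa in both types, whereas Jak3 in MZB was higher with IL6 than with either. Bank1 was higher with IL6 than with IL1b in both types. IL6 and IL1b differed for 298 genes in MZB (2.4%) and 68 in B.fo (0.496%), IL6 and TNFa for 146 in MZB (1.18%) and 17 in B.fo (0.124%). Socs3 averaged 51.1 ± 7.21 CPM with IL6, 635 ± 54.4 CPM with IL1b and 416 ± 39.2 CPM with TNFa in MZB (SD, n = 3 each). The log2 difference was -3.64 (adjusted p = 9.98e-10) from IL1b and -3.03 (adjusted p = 2.35e-08) from TNFa, and in B.fo -4.39 (adjusted p = 3.76e-05) and -3.32 (adjusted p = 0.000231). Tsc22d3 in MZB was likewise lower with IL6, with differences of -1.75 (adjusted p = 1.70e-07) against IL1b and -1.66 (adjusted p = 4.85e-07) against TNFa. Jak3, in contrast, was higher with IL6 in MZB, with differences of 1.01 (adjusted p = 0.00151) against IL1b and 0.71 (adjusted p = 0.0386) against TNFa. Bank1 was higher with IL6 than with IL1b in MZB (log2 fold change 0.42, adjusted p = 0.0077) and in B.fo (log2 fold change 0.46, adjusted p = 0.0168). Cd22 was higher in MZB (log2 fold change 0.38, adjusted p = 0.0172), and its B.fo difference did not pass (log2 fold change 0.16, adjusted p = 0.63). Against TNFa, Cd22 did not pass in MZB or in B.fo, and the contrast of Bank1 with TNFa is not given here. Nop2 averaged 179 ± 6.995 CPM with IL6, 181 ± 20.3 CPM with IL1b and 174 ± 8.99 CPM with TNFa in MZB, and Slc17a9 78.3 ± 1.73 CPM with IL6, 70.8 ± 21.4 CPM with IL1b and 73.6 ± 12.7 CPM with TNFa.

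Against T.4, 41 of 14610 genes (0.281%) had another response to IL6 in MZB and 41 (0.281%) in B.fo. Slc17a9 was among them, with a difference of 1.91 ± 0.23 (SE; adjusted p = 4.33e-05) for MZB minus T.4, where its effect in T.4 was -0.52 ± 0.15 (SE; adjusted p = 0.0986). Ccnd3 responded more in both B cell types, by 0.64 ± 0.14 (SE; adjusted p = 0.0345) in MZB and 0.66 ± 0.14 (SE; adjusted p = 0.0309) in B.fo. Mdm4 responded more in B.fo, by 0.80 ± 0.16 (SE; adjusted p = 0.0232). Flot1 rose in T.4 by 1.89 ± 0.22 (SE; adjusted p = 4.86e-06), and its difference was -1.27 ± 0.33 (SE; adjusted p = 0.13) for MZB and -1.52 ± 0.35 (SE; adjusted p = 0.0577) for B.fo, neither of which passed. Socs3 rose in T.4 by 1.40 ± 0.30 (SE; adjusted p = 0.00905) to a level of 604 CPM with IL6, against 229 CPM with PBS. Stat3 and Jak3 rose there by 0.92 ± 0.11 (SE; adjusted p = 1.02e-05) and 1.36 ± 0.16 (SE; adjusted p = 1.02e-05), and for neither gene did the difference in effect from T.4 pass. That difference was -0.18 ± 0.17 (SE; adjusted p = 0.90) for Stat3 and 0.04 ± 0.24 (SE; adjusted p = 1.00) for Jak3 in MZB, and -0.22 ± 0.17 (SE; adjusted p = 0.72) and -0.53 ± 0.26 (SE; adjusted p = 0.45) in B.fo.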

How the data were processed

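RNA was counted in libraries of 1000 sorted cells. The authors deposited raw counts for 55011 gene symbols, whole numbers with differing totals. The submitters' processing notes name STAR 2.7.3a, featureCounts and mm10. Annotation release, strandedness and handling of multi-mapping reads are not given in the sources consulted, so near-identical, overlapping and antisense genes are uncertain. Positions and lengths came from GENCODE vM21 (GRCm38) for 53009 symbols, promoters from RefSeq (GRCm38.p6).

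Groups came from titles and treatment labels. The test was edgeR 4.0.16 in R 4.3.3, with TMM, filterByExpr, glmQLFit, glmQLFTest, Benjamini-Hochberg adjustment over all genes tested, threshold 0.05. All adjusted p-values are from it except where DESeq2 (1.42.0) is named; SEs are the log2 fold change's size over the root of F. Each type had 1 fit of its 13 libraries (IL6, IL1b, TNFa and PBS), both types 1 fit of 26, and both types with T.4 1 fit of IL6 and PBS libraries. CPM is counts per 1000000 of the TMM-scaled library. Totals were 2555640 to 9291121 counts. No libraries of a group were identical or within sampling noise by chi-square. Deviations of same-numbered IL6 and PBS libraries had correlations of 0.092, 0.003 and 0.072 in MZB and -0.013 and -0.020 in B.fo. Pairs with other numbers ran from -0.064 to 0.106 in MZB. With 2 IL6 libraries the B.fo values mirror each other. Such weak correlations cannot decide whether the numbers pair libraries, and the main fits used no pairing. The test was tried on simulated counts.

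The members and lists were chosen with earlier results of these data known. Named genes were those called in both types; per type up to 20 raised and 10 lowered called genes with at least 5 CPM and no overlap of groups; the 6 with the smallest adjusted p for the average and for the difference; IL6 pathway genes; and called members of each list with up to 3 others. Genes named outside this rule were chosen after their values were seen. Alternatives were DESeq2, other size factors, other filters, IL6 and PBS libraries alone, thinned counts, a replicate block, leaving out each library, and an offset for gene length.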

Additional observations from a re-analysis of the deposited data

Results flagged for a closer look

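Ttll12 passed the test of a difference between the IL6 effects of the 2 B cell types by edgeR (adjusted p = 0.0474). The effect was 2.90 higher in MZB than in B.fo on the log2 scale. The call was lost with DESeq2, thinned counts, a filter of 1 CPM, IL6 and PBS libraries alone, the replicate block and in 9 of the 14 fits without 1 library. The effect in B.fo was lower than that in T.4 by a difference of -2.04.

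Slc17a9 responded more in MZB than in T.4, with a difference of 1.91 between the log2 fold changes. Tcp11l2 had a more negative effect in MZB than in T.4, at -0.82. Ccnd3 and Mdm4 responded more in B.fo than in T.4, with differences of 0.66 and 0.80.

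Shmt1 had 46.2 CPM in B.fo PBS replicate 5, far above the other 4 PBS libraries of B.fo, which had 19.4 to 24.3 CPM. This gap was 0.815 of the whole range, above the limit of 0.71 for 5 libraries, and chance passes that limit in about 1 of 20 groups; it was the 1 such library among 92 groups examined.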

How the results depend on the processing

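Counts of calls moved by more than 1.5 times under several settings. With DESeq2 there were 146 calls in MZB, 308 in B.fo, 17 shared, 410 in the average, 48 in the difference between types (Ttll12, the edgeR call, not among them), 609 and 221 for IL6 against IL1b in MZB and B.fo, and 120 and 233 for MZB and B.fo against T.4. Without a filter on low counts there were 111 in MZB, 185 in B.fo, 18 shared, 257 in the average, 30 in the difference and 154 for IL6 against IL1b in B.fo. With IL6 and PBS libraries alone, B.fo, the shared genes and the difference each gave 0 calls. Thinned counts gave 5 shared genes and 0 for the difference, and a filter of 1 CPM gave 0 for the difference. The offset for gene length, chosen after seeing the data, gave 11 in B.fo and 0 shared.

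Leaving out each library in turn gave 4 to 17 calls in MZB, 1 to 63 in B.fo, 0 to 6 shared, 21 to 170 in the average (44 without MZB IL6 replicate 2, 40 and 21 without B.fo IL6 replicates 1 and 2) and 0 to 2 in the difference. Of the ribosomal protein genes, 14 fell in B.fo; 2 did without IL6 replicate 1, 0 without IL6 replicate 2, 0 with IL6 and PBS libraries alone, 3 with the length offset and 47 with DESeq2. The replicate number was also used as a block, although the labels do not say that it pairs libraries. There were then 25 calls in MZB, 23 in B.fo (13 of them main calls) and 3 shared (Bank1, Ccr7 and Jak3). The block gave 136 in the average, 0 in the difference and 14 for B.fo against T.4. For named genes, 3848 values under other settings stayed on the same side of the threshold, 363 lost the call and 88 gained it. Direction was compared only where the main fit or the other setting made a call, and 0 of those reversed. Genes called in neither were not checked for direction. The causes were not tested. The B.fo result is limited by its 2 IL6 libraries, and genes of a few CPM by their counts.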

Other observations

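Genes that passed in the average over both types, and that were chosen here after their values were seen, added to the groups described. Gnl3, the nucleolar GTPase nucleostemin, had 181, 177 and 143 CPM in the IL6 libraries, against 74.04, 121, 102 and 117 CPM in the PBS libraries of MZB and 117 and 85.9 CPM in the IL6 libraries, against 52.9, 62.98, 59.7, 62.7 and 65.1 CPM in the PBS libraries of B.fo, an average log2 fold change of 0.71 ± 0.12 (SE; adjusted p = 0.00205). Heatr1, a nucleolar factor for ribosomal RNA transcription, changed by 0.51 (adjusted p = 0.0117). Both had positive values in each type (0.69 in MZB and 0.75 in B.fo for Gnl3, 0.57 and 0.47 for Heatr1). Gnl3 lost the call in 1 of the 14 fits without 1 library (B.fo IL6 replicate 1), and Heatr1 in 3 (MZB IL6 replicate 2 and both B.fo IL6 replicates).

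Among genes lowered in the average were Sting1, the receptor for cyclic dinucleotides of the DNA sensing pathway, at -0.56 (adjusted p = 0.00711), Tifa, an adaptor of NF-kB signalling, at -0.76 (adjusted p = 0.0123), and Grap, an adaptor of lymphocyte receptors, at -0.46 (adjusted p = 0.013). Sting1 had 103, 106 and 94.4 CPM in the IL6 libraries, against 152, 165, 145 and 159 CPM in the PBS libraries of MZB and 143 and 155 CPM in the IL6 libraries, against 236, 212, 164, 239.8 and 195 CPM in the PBS libraries of B.fo. Its groups did not overlap in either type. Sting1 lost the call without either B.fo IL6 library, Tifa without these or MZB IL6 replicate 2, and Grap without MZB IL6 replicate 2 or B.fo IL6 replicate 2. Fcrl5, an Fc receptor-like protein high in MZB, rose by 0.75 (adjusted p = 0.00871), with 803 ± 177 CPM with IL6 and 596 ± 22.03 CPM with PBS in MZB and 84.4 ± 17.4 CPM with IL6 and 39.7 ± 15.8 CPM with PBS in B.fo (SD). Its call was lost without B.fo IL6 replicate 2.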
